A study of Rattus norvegicus with 10 samples.

Results

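The 10 genes described here carry long-chain fatty acids into the mitochondrion and break them down there, and they were measured in the whole mammary glands of young female rats. The genes are Cpt1a, Cpt1b, Cpt2, Slc25a20, Acadm, Acadl, Acadvl, Hadha, Hadhb and Pdk4. A probe set, the group of short probes that reads 1 transcript on the array, was taken when the platform annotation gave it a single gene symbol and that symbol was one of these. This gave 11 probe sets, 2 of them for Cpt1a (1367836_at and 1386946_at). All 11 had a mean signal above the filter on dim probe sets, and they stand among 9520 probe sets for 7151 genes that were tested. The genes were chosen by their log2 signals in these same 10 arrays, by diet and beside the muscle signal, with Cpt2 and Pdk4 known to differ most between the diets. The differences between the diets are therefore given as a description, and no test is made over the 10 genes.

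Glands were taken at postnatal day 21, around weaning, from female SD rats, an outbred laboratory strain. All had been exposed from gestation day 4 to AIN-93G, a purified rodent diet. The soy group had soy protein isolate as the protein of that diet, and the casein group had casein, the main protein of cow's milk. Each group has 5 arrays, called here by diet and by the number in the labels. Values given array by array follow the order casein 6, 7, 10, 18 and 20, then soy 147, 149, 155, 157 and 159. The labels speak of RNA pools with several targets made from each, so some arrays may share RNA, and the spread between arrays, with every SE and p-value made from it, may be partly technical. Values are log2 of the MAS5 signal, the deposited intensity of a probe set.

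A whole gland at this age is a fat pad with a small epithelial tree, a lymph node and sometimes adjoining muscle. The mean log2 signal of 15 adipocyte genes lay between 11.05 and 12.13 in all 10 arrays. Brown fat is a heat-producing tissue rich in these enzymes, and 7 of its listed markers were on the array. Of these, Ucp1 lay between 6.18 and 7.37, Dio2 between 3.02 and 5.06 and Ppargc1a between 0.38 and 3.39, all under the filter at 7.47. Cidea, the only marker tested, lay between 8.94 and 10.37. Cox8b and Cox7a1, which muscle also expresses, were highest in casein 6, at 11.73 and 8.32, and Cox8b lay between 9.02 and 10.82 in the 3 muscle-rich soy arrays and at most at 3.86 in the other 6. Skeletal muscle genes were bright in some arrays. The mean of 18 muscle genes read 12.84 for casein 6, and 11.53, 12.41 and 12.83 for soy 147, 149 and 157. The remaining 6 arrays ran from 6.82 to 8.24. Of these 18 genes, 16 were higher in soy, with a median difference of 2.24, and none passed an adjusted p under 0.05. Lymph node genes (12 tested) were low in casein 6, at 6.45, and in soy 149, at 6.33, against 9.01 to 9.82 elsewhere, and luminal epithelial genes (7 tested) ran from 6.71 in casein 6 to 10.28 in casein 7. The log2 ratio of 3' to 5' actin signal, a sign of RNA quality, was 0.29 to 0.63 for casein arrays and 0.50 to 0.65 for soy arrays. In such bulk samples, fewer cells of a type and less RNA per cell cannot be told apart.

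Long-chain fatty acids cross the mitochondrial membranes bound to carnitine. CPT1 on the outer membrane makes the acylcarnitine, a translocase in the inner membrane exchanges it for free carnitine, and CPT2 on the inner side returns the fatty acid to coenzyme A. Acyl-CoA dehydrogenases and the trifunctional protein then shorten the chain in repeated cycles that yield acetyl-CoA. PDK4 phosphorylates and so inhibits the pyruvate dehydrogenase complex, which sets fatty acids above glucose as the mitochondrial fuel. It is induced in fasting and by glucocorticoids, and PPAR alpha activates many of these genes. In fat tissue the pathway is active but small beside fat storage, while oxidative muscle and brown fat depend on it.

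The starts of 8 of the 10 genes were found in the RefSeq promoter table (build GRCr8), and the 250 bases before each start were searched on both strands for 8 short motifs. The windows of Cpt2 and Pdk4 are shown because these genes differed most between the diets, and that of Hadha because it runs into the window of its partner Hadhb. They are written 5' to 3' on the strand of the gene, with the motif letters in capitals.
Cpt2, minus strand of chr5:127910819-127911068: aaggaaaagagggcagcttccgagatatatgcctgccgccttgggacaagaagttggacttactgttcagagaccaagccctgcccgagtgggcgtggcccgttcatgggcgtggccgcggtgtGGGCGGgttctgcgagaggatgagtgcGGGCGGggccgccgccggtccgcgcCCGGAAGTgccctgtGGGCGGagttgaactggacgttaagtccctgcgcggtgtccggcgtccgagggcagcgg
Pdk4, minus strand of chr4:34568330-34568579: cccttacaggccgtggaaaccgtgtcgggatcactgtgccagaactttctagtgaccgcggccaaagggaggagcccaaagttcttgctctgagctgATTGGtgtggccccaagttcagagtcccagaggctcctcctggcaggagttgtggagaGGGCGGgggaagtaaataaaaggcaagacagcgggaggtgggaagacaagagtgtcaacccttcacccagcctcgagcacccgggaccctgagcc
Hadha, plus strand of chr6:31907551-31907800: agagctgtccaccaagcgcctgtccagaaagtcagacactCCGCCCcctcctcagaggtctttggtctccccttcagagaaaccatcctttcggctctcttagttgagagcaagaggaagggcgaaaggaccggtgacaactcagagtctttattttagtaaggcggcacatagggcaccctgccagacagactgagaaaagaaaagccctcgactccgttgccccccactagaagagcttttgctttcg
In the Cpt2 window the capitals mark GGGCGG, the GC box of Sp1, at 126, 99 and 59 bases before the start, and CCGGAAGT, a site of ETS factors, at 74 bases. In the Pdk4 window they mark a CCAAT box on the other strand at 153 bases and a GC box at 95 bases. The Hadha and Hadhb genes lie head to head with 300 bases between their starts, so that 200 of the 250 bases of their windows are the same DNA, and the GC box marked in the Hadha window (CCGCCC, 210 bases before its start) is the one at 96 bases before the start of Hadhb. GC boxes were found in 5 of the 8 windows and in 30.5% of all 33469 windows of this length, and the ETS letters in 2 of 8 (Cpt2 and Slc25a20) against 3.1%. CCAAT stood in 1 of 8 (Pdk4) against 34%, TGACGTCA, the cAMP response element, in 1 (Acadm) against 1.59%, and AGGTCA, the half-site of nuclear receptors, in 1 (Acadvl) against 14.1%. None of the 8 windows held GTAAACA, the forkhead letters (3.21% of all), the direct repeat bound by PPAR and RXR (0.368%) or the glucocorticoid receptor palindrome (0.012%). The GC box and the ETS letters do not overlap each other in the Cpt2 window. A motif match is a description of letters, and the arrays hold no measure of binding.

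Between the diets, most members stood slightly lower in soy, Cpt2 stood lower in every soy array and Pdk4 was higher on average. Of the 11 probe sets, 9 had a negative and 2 a positive soy minus casein difference, which is 81.8% lower, where 52.7% of all probe sets tested were lower. Their median difference was -0.15 on the log2 scale against -0.01 over all tested. None of the 11 passed an adjusted p under 0.05 in limma (Benjamini-Hochberg over the 9520), and the background in that comparison was 0 called, or 0%, with a smallest adjusted p of 0.98. At an unadjusted p under 0.05 there were 433 probe sets, or 4.55% (2.24% lower and 2.31% higher in soy). Among the members there were 2, Cpt2 (lower) and Pdk4 (higher), the genes already named when the members were chosen, so nothing is read from that count. Without casein 6 the median of the members was -0.09, and without soy 149 it was -0.22.

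**Figure D1:**
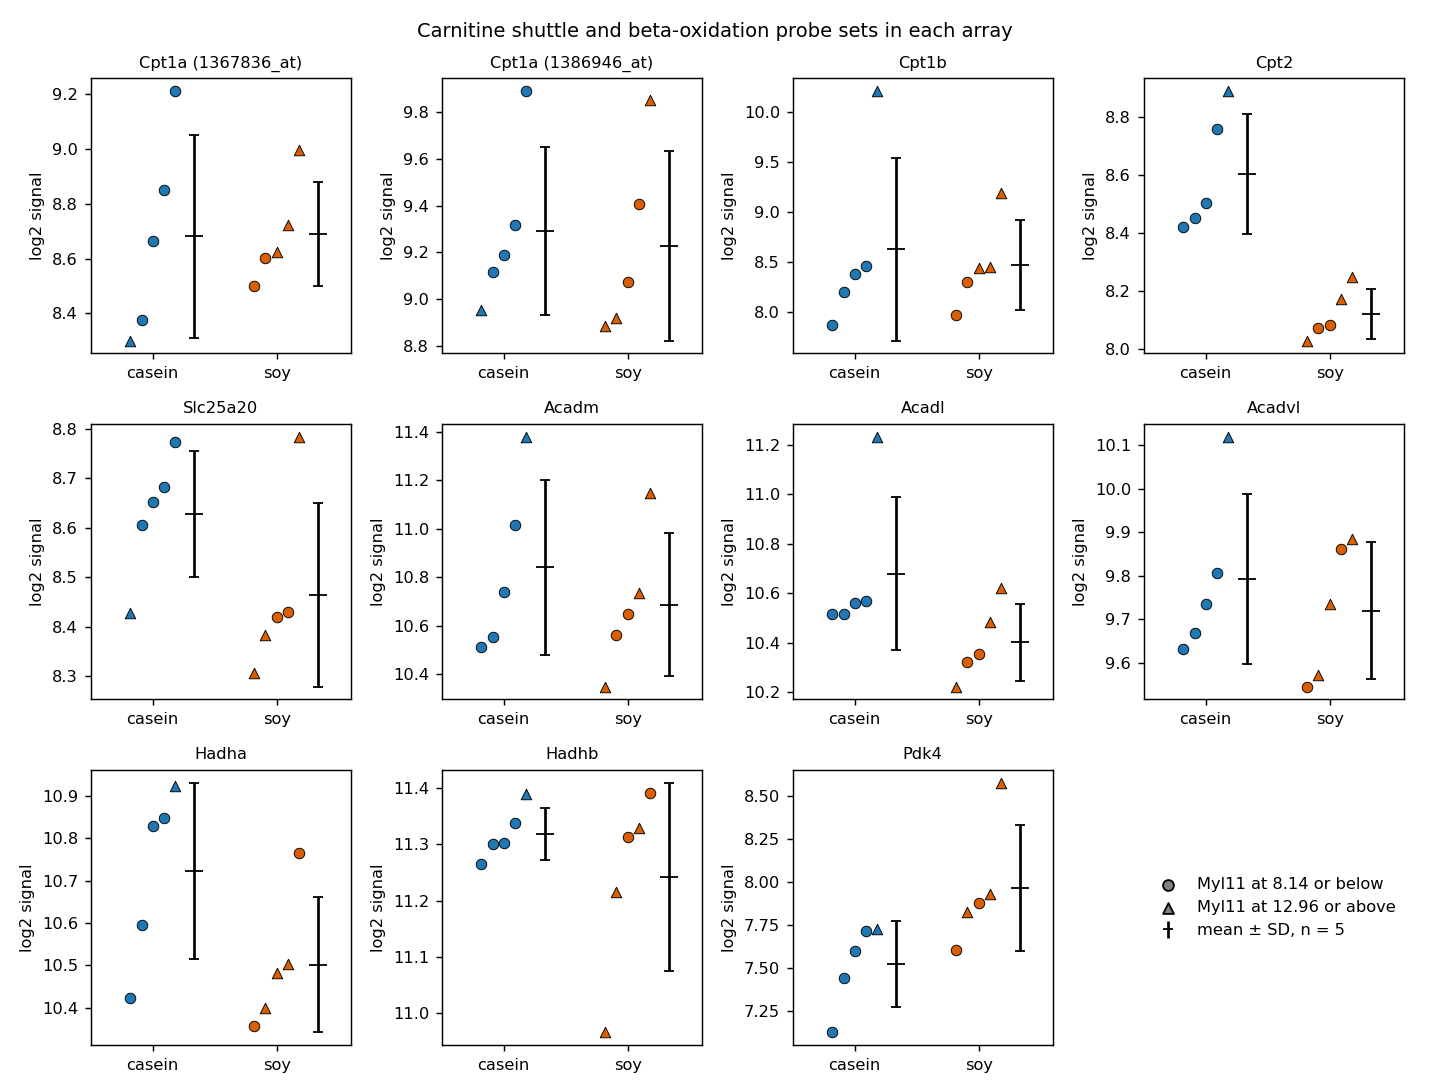
Log2 MAS5 signal (vertical axes, a separate scale in each panel) of the 11 probe sets in each of the 5 casein and 5 soy arrays, with the mean ± SD beside the points. Triangles are the 4 arrays with a Myl11 signal of 12.96 or above. The Cpt2 points of the diets do not overlap, those of every other probe set do, and casein 6 is the top point of 6 panels.

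Cpt1a and Cpt1b encode the liver and muscle forms of the outer-membrane carnitine palmitoyltransferase, the regulated entry step that malonyl-CoA inhibits. Cpt1a did not separate the diets. At probe set 1367836_at the casein arrays read 8.30, 9.21, 8.85, 8.38 and 8.66, and the soy arrays 8.99, 8.62, 8.50, 8.72 and 8.60. All soy values lay within the casein range, and the difference was 0.01 ± 0.17 (SE, n = 5 per diet). The other Cpt1a probe set, 1386946_at, differed by -0.07 ± 0.21 (SE), with casein 7 at 9.89 and soy 147 at 9.85 above the 8.89 to 9.41 of the other 8 arrays. Casein 7 and soy 147 were also the highest arrays of the first probe set. The mean of the 7 luminal epithelial genes tested was highest in casein 7, at 10.28. Casein 18 came next at 9.45, followed by soy 147 at 9.42. Casein 18 read 8.38 at the first Cpt1a probe set, the second lowest of all, and 9.32 at the other. The part of epithelium in the Cpt1a signal was not tested. Both differences are small enough that leaving out 1 array turned their signs: at 1367836_at without casein 18 (-0.07), casein 6 (-0.09) or soy 147 (-0.07), and at 1386946_at without casein 7 (0.08), soy 149 (0.01) or soy 157 (0.02). Other settings also turned the first: median centring (-0.01), array weights (-0.08), and Myl11 and lymph node signal as covariates (-0.10). It also turned without the 4 arrays of highest Myl11 (-0.22) and without casein 6 and soy 149 (-0.07).

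Cpt1b stood apart in 2 arrays, 1 of each diet. The casein arrays read 10.21, 8.39, 8.47, 7.88 and 8.21, and the soy arrays 8.45, 9.20, 8.30, 8.44 and 7.97. Casein 6 was thus 1.91 above the median of the other casein arrays and soy 149 was the next highest, while the remaining 8 arrays lay between 7.88 and 8.47 in both diets. The diet difference of -0.16 ± 0.39 (SE) turned to 0.24 ± 0.22 (SE) without casein 6 and to 0.06 ± 0.16 (SE) without casein 6 and soy 149. It was -0.69 ± 0.27 (SE) with Myl11 as a covariate and -0.43 ± 0.21 (SE) with the lymph node signal added. Without soy 149 it was -0.34, without casein 18 -0.35, without casein 20 -0.26 and without soy 159 -0.03.

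Slc25a20, the carnitine-acylcarnitine translocase of the inner membrane, read 8.43, 8.77, 8.68, 8.60 and 8.65 with casein and 8.38, 8.78, 8.42, 8.31 and 8.43 with soy. Casein 6 was the lowest casein array and soy 149 the highest of all, and the other 4 casein arrays lay at 8.60 to 8.77 and the other 4 soy arrays at 8.31 to 8.43. The difference was -0.16 ± 0.12 (SE), and without casein 6 and soy 149, the 2 arrays low in lymph node signal, it was -0.29 ± 0.10 (SE). With Myl11 and lymph node signal as covariates it was -0.08 ± 0.14 (SE), and without the 4 arrays of highest Myl11 it was -0.25 ± 0.12 (SE).

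Cpt2, the transferase on the inner membrane that completes the shuttle, read 8.89, 8.42, 8.45, 8.76 and 8.50 with casein and 8.17, 8.03, 8.07, 8.25 and 8.08 with soy. All 5 soy arrays lay below all 5 casein arrays, with 0.17 between the lowest casein and the highest soy value. Among all probe sets tested, 0.357% had every soy array below every casein array, and 0.798% had no overlap in either direction. Cpt2 is the only one of the 11 that did. The means were 8.60 ± 0.21 (SD, n = 5) with casein and 8.12 ± 0.09 (SD, n = 5) with soy, a difference of -0.48 ± 0.12 (SE), or 1.40-fold higher in casein. Casein 6 and soy 149, both rich in muscle and poor in lymph node signal, were the highest casein and the lowest soy array for Cpt2. The difference was -0.55 ± 0.13 (SE) with Myl11 as a covariate. Other values were those without the 4 arrays of highest Myl11 (-0.46 ± 0.14, SE, 4 casein and 2 soy arrays) and without casein 6 and soy 149 (-0.39 ± 0.12, SE). Leaving out 1 array gave -0.53 to -0.41.

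**Figure D2:**
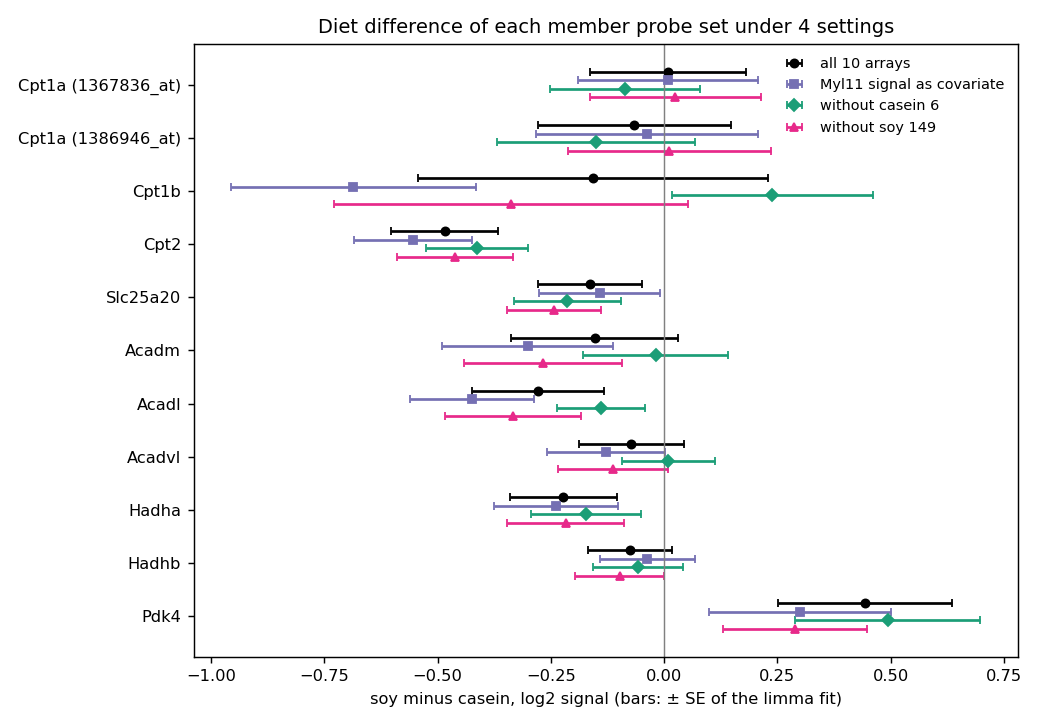
Soy minus casein difference in log2 signal (horizontal axis; bars are ± SE of the limma fit) of each of the 11 probe sets with all 10 arrays, with Myl11 as a covariate, without casein 6 and without soy 149. Cpt2 stays between -0.55 and -0.41 and Pdk4 between 0.29 and 0.49, while Cpt1b runs from -0.69 to 0.24.

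The 3 acyl-CoA dehydrogenases catalyse the first step of each cycle and differ in the chain length they prefer. Acadvl acts on very long, Acadl on long and Acadm on medium chains. Acadl read 11.23, 10.52, 10.56, 10.57 and 10.52 with casein and 10.48, 10.62, 10.36, 10.22 and 10.32 with soy. Casein 6 stood 0.61 above every other array, and soy 149 alone of the soy arrays lay above the other 4 casein arrays. The difference was -0.28 ± 0.15 (SE), with all 5 soy arrays below the casein mean. It was -0.14 ± 0.10 (SE) without casein 6 and -0.42 ± 0.14 (SE) with Myl11 as a covariate.

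Acadm read 11.38, 10.51, 10.55, 11.02 and 10.74 with casein and 10.35, 11.14, 10.65, 10.73 and 10.56 with soy. The 3 highest arrays, casein 6, soy 149 and casein 18, came from both diets, and the diets overlapped over most of their range. The difference of -0.15 ± 0.19 (SE) was -0.02 ± 0.16 (SE) without casein 6, -0.07 without soy 147, -0.24 without casein 7 and -0.27 without soy 149. It was -0.30 ± 0.19 (SE) with Myl11 as a covariate. Acadvl lay between 9.63 and 9.81 in 4 casein arrays and at 10.12 in casein 6, and between 9.55 and 9.88 in soy, with soy 149 highest. Its difference of -0.07 ± 0.12 (SE) turned to 0.01 ± 0.10 (SE) without casein 6.

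Hadha and Hadhb encode the alpha and beta subunits of the trifunctional protein, which carries out the last 3 steps of the cycle for long chains. The subunits work in one complex, and the genes share the stretch between their starts. The spread of their values was nearly equal in soy (SD 0.16 and 0.17, n = 5) but not in casein (SD 0.21 and 0.05, n = 5). An equal spread does not show that values vary together. Soy 157 was the lowest of all arrays for Hadhb, at 10.97, but the second highest soy array for Hadha. Hadha read 10.92, 10.85, 10.83, 10.59 and 10.42 with casein and 10.40, 10.48, 10.36, 10.50 and 10.77 with soy. Of the soy arrays, 4 lay below the casein mean, and casein 20 lay among them. The Hadha difference was -0.22 ± 0.12 (SE), and -0.11 ± 0.16 (SE) without the 4 arrays of highest Myl11.

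Hadhb varied least of the 11, over a range of 0.43. It lay between 11.27 and 11.39 with casein (SD 0.05, n = 5), and the soy arrays read 11.22, 11.33, 11.31, 10.97 and 11.39. The soy array with the highest Myl11 signal, soy 157, was thus the lowest for Hadhb. The difference of -0.08 ± 0.09 (SE) was -0.01 ± 0.08 (SE) without soy 157, and 0.05 ± 0.09 (SE) without the 4 arrays of highest Myl11. With Myl11 and lymph node signal as covariates it was 0.04 ± 0.09 (SE).

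Pdk4, the pyruvate dehydrogenase kinase, read 7.72, 7.72, 7.60, 7.12 and 7.44 with casein and 7.93, 8.58, 7.60, 7.82 and 7.88 with soy. All 5 soy arrays lay above the casein mean, and 4 of them above every casein array, but soy 155 lay below casein 6 and casein 7. The means were 7.52 ± 0.25 (SD, n = 5) with casein and 7.96 ± 0.37 (SD, n = 5) with soy, a difference of 0.44 ± 0.19 (SE), or 1.36-fold higher in soy. It was 0.29 ± 0.16 (SE) without soy 149 and 0.27 ± 0.20 (SE) without the 4 arrays of highest Myl11. These Pdk4 signals are close to the filter at 7.47 and no detection call was used, so the size of the difference is not exact.

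The Pdk4 and Cpt2 values thus ran in opposite directions between the diets, and some arrays, but not all, stood at opposite ends of them. Soy 149 was the highest array for Pdk4 and the lowest for Cpt2, while casein 18, the lowest for Pdk4, was the second highest for Cpt2. Casein 6, the highest of all arrays for Cpt2 at 8.89, was also the highest casein array for Pdk4. The probe sets of other genes most like Cpt2 over the 10 arrays were those of Slc25a15, the mitochondrial ornithine carrier (Pearson r = 0.895, and 0.691 after the diet means were taken off), Myh1 (1377720_x_at; r = 0.875 and 0.799) and Farsb, a tRNA synthetase subunit (r = 0.865 and 0.498). The Myh1 probe set lay between 10.59 and 11.18, with casein 6 and casein 18 highest and the 3 muscle-rich soy arrays at 10.66 to 10.79. Myh1 encodes a fast-muscle myosin, but its 5 probe sets did not follow the muscle arrays as Myl11 did, so what this probe set measures is uncertain. Those most like Pdk4 were Cyp2d4, a cytochrome P450 (r = 0.926 and 0.896), Adgrf5, an adhesion receptor (r = 0.913 and 0.904), and Oxsr1, a stress-responsive kinase (r = 0.909 and 0.902). Soy 149 was the highest array for all 3. These are the 3 highest of all named probe sets tested, given as a measure of likeness only.

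Most probe sets tested, and all the members among them, had the muscle-rich arrays neither all above nor all below the rest. The log2 signal of Myl11, which encodes a myosin of fast fibres, read 13.80, 7.47, 3.29, 3.17 and 3.42 with casein and 12.96, 13.76, 8.14, 14.39 and 3.15 with soy. The 4 high arrays, casein 6 and 3 of soy, lay all above the other 6 for 2.14% of the probe sets tested and all below them for 2.15%. For the 11 members the count was 0 in either direction, which is near those shares, so nothing is read from it. Cpt1b and Pdk4 came closest, with 3 of the 4 high arrays among their top 4. For Cpt1b the lowest of the 4 high arrays was 8.44, against a highest value of 8.47 in the other 6. The top 4 of Pdk4 were all soy arrays: the 3 muscle-rich ones and soy 159, which is poor in Myl11. The muscle-rich casein 6, at 7.72, was not among them, and the parts of diet and muscle in this order were not tested. Soy 157, the array with the most Myl11, was the lowest of all 10 for Acadl, Hadhb, Slc25a20 and Cpt1a at 1386946_at, and soy 147 was the lowest for Acadm.

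**Figure D3:**
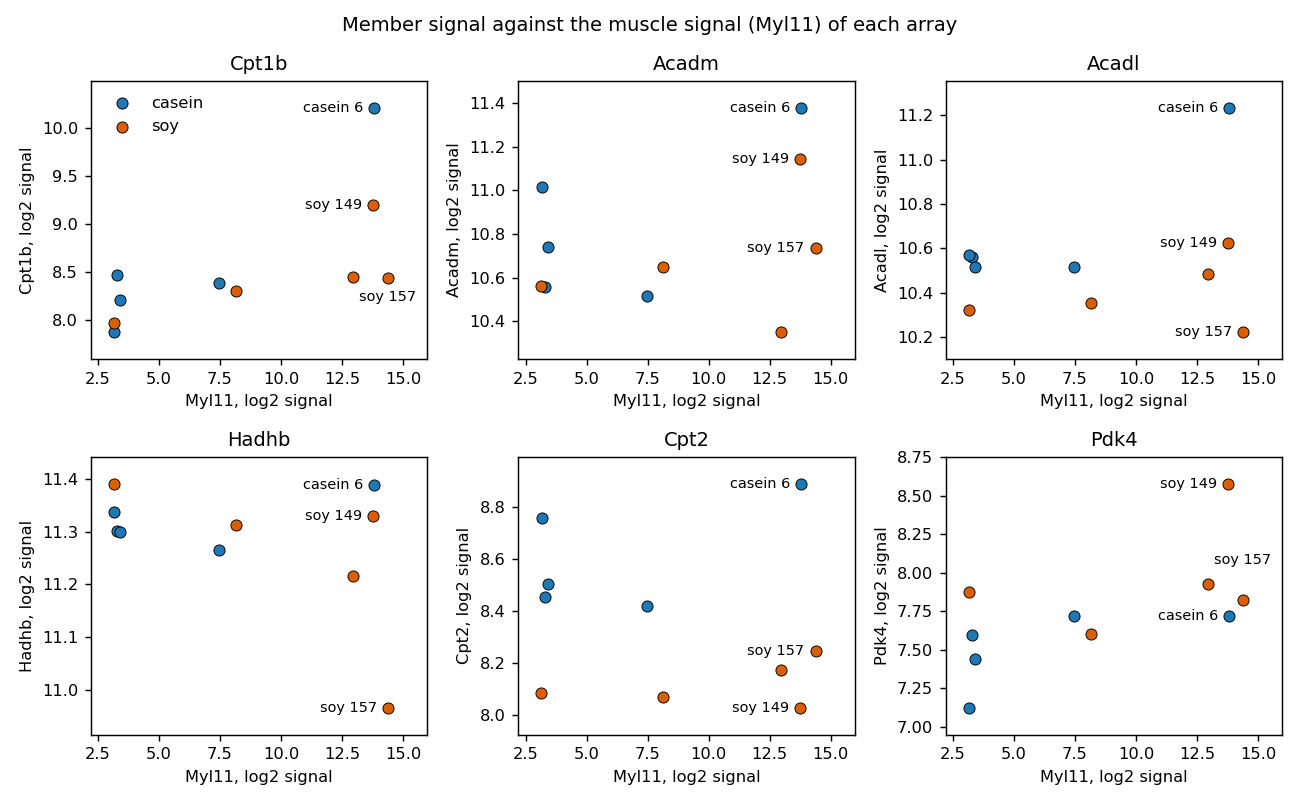
Log2 signal of 6 members (vertical axes, a separate scale in each panel) against the log2 signal of Myl11 (horizontal axes) in the 5 casein and 5 soy arrays, with casein 6, soy 149 and soy 157 named. Among the 4 arrays with Myl11 at 12.96 or above, casein 6 and soy 149 are the highest for Cpt1b, Acadm and Acadl, and soy 157 is the lowest for Acadl and Hadhb.

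The array casein 6 was the highest for most of the 10 genes, by 0.07 for Hadha to 1.01 for Cpt1b over the next array. It was the highest of the 10 arrays for 6 of the 11 probe sets, those of Cpt1b, Cpt2, Acadm, Acadl, Acadvl and Hadha, where 13.4% of all probe sets tested were highest in casein 6. It was within 0.01 of the highest for Hadhb, and it was the lowest array for Cpt1a at 1367836_at. The same array was highest for 7 of 14 tested genes of the citrate cycle and mitochondrial content, among them Mdh2, a malate dehydrogenase, at 11.99 against 11.06 to 11.67 elsewhere, and Idh3a, an isocitrate dehydrogenase subunit. In the other lists it was highest for 3 of 14 other beta-oxidation enzymes, 2 of 9 genes of activation and carnitine supply, 2 of 11 of the pyruvate dehydrogenase list, 1 of 13 regulators and 0 of 5 peroxisomal and ketone body genes.

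Casein 6 was also the highest array for 7 of the 18 skeletal muscle genes tested. Among them were Des (11.99, against 10.97 in soy 157 and 10.78 in soy 149) and Ldb3 (11.78, against 10.73 and 10.75). Markers of oxidative muscle fibres, looked up after these values were seen, were highest in casein 6 too, so this was not particular to them. Myoglobin (Mb), the oxygen store of oxidative muscle, read 10.76 for casein 6, 8.69 for soy 149, 7.95 for soy 157 and 7.77 for soy 147, and the other 6 arrays were at most at 5.20. Tnnc1, the troponin C of slow fibres, read 9.89 for casein 6 and 7.24 for soy 149, and the other 8 arrays lay at 6.00 to 6.83. The arrays with most Cpt1b were thus those with most Mb and Tnnc1, in the same order for casein 6 and soy 149, while Myl11 differed by only 0.04 between them. Crat, the carnitine acetyltransferase, followed the same pattern, with 10.18 in casein 6, 9.75 in soy 149 and 8.86 to 9.30 elsewhere. So did Pdk2, another pyruvate dehydrogenase kinase, at 10.01, 9.60 and 8.70 to 9.21, and Ucp3, the muscle uncoupling protein, at 9.32, 9.21 and 8.28 to 8.83. Pdk4 did not, with casein 6 at 7.72 under 4 of the soy arrays. The part of muscle fibre type in these values was not tested.

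**Figure D4:**
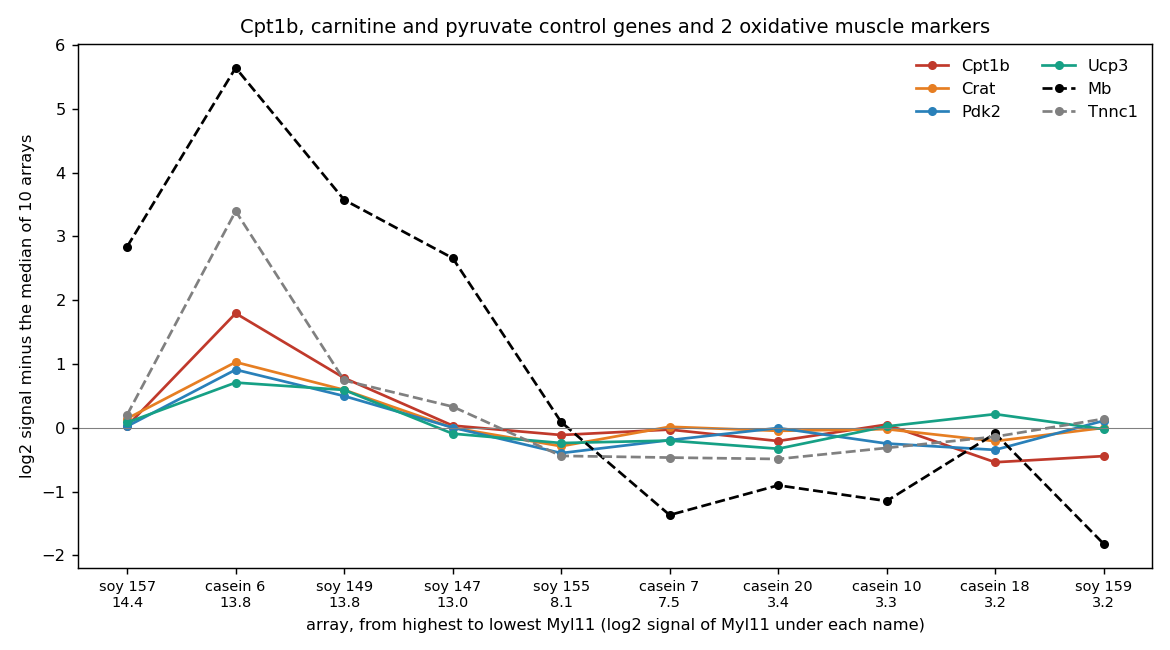
Log2 signal minus the median of the 10 arrays (vertical axis) of Cpt1b, Crat, Pdk2, Ucp3 and the oxidative muscle markers Mb and Tnnc1, with the arrays ordered from highest to lowest Myl11. Casein 6 is the peak for all 6 genes and soy 149 the second highest, while soy 157, with more Myl11 than either, is not raised for Cpt1b.

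Of 6 lists of neighbouring genes, 5 had median differences between -0.05 and 0.03, where that of all probe sets tested was -0.01, and the peroxisomal list stood at 0.14. No gene of these lists passed an adjusted p under 0.05 in limma. Among genes of fatty acid activation and carnitine supply, 6 of 9 tested were lower and 3 higher in soy, with a median difference of -0.05. Acsl1, the main acyl-CoA synthetase of fat, differed by 0.03 ± 0.17 (SE) and Acsl5 by 0.16 ± 0.13 (SE). Acsl4, the synthetase that prefers arachidonic acid, differed by -0.27 ± 0.10 (SE), with all soy arrays, at 8.65 to 9.03, below the 9.06 to 9.35 of casein, and Tmlhe, the first enzyme of carnitine synthesis, by -0.28 ± 0.27 (SE). The Tmlhe difference rested on soy 157, at 6.54, and was 0.01 without it, while that of Acsl5 was 0.04 without casein 6 and 0.10 without soy 157.

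Of the other enzymes of beta-oxidation and electron transfer, 9 of 14 tested were lower and 5 higher, with a median of -0.04. The brightest, Hadh, which acts on short chains, differed by -0.04 ± 0.10 (SE), and Decr1, which handles unsaturated chains, by -0.03 ± 0.12 (SE). The largest differences were those of Echs1, the short-chain enoyl-CoA hydratase, at -0.34 ± 0.23 (SE), with soy 147 and soy 157 at 9.42 and 9.41 and the other 8 arrays at 10.16 to 10.61, and of Ivd, which acts on a breakdown product of leucine, at -0.27 ± 0.15 (SE). Without either soy 147 or soy 157 the Echs1 difference was -0.19. Peroxisomal and ketone body genes were higher in 4 and lower in 1 of 5 tested, with a median of 0.14. Abcd3, a peroxisomal transporter, differed by 0.39 ± 0.31 (SE), Abcd2 by 0.15 ± 0.16 (SE), the lipid carrier Scp2 by 0.10 ± 0.13 (SE) and Oxct1, which uses ketone bodies, by 0.00 ± 0.14 (SE). The Abcd3 difference was 0.20 without soy 157, 0.25 without soy 149 and 0.59 without casein 20, and that of Abcd2 was 0.02 without soy 149, 0.10 without casein 18 and 0.24 without soy 147.

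Regulators and genes of malonyl-CoA control were higher in 9 and lower in 4 of 13 tested, with a median of 0.03. Acaca, the acetyl-CoA carboxylase whose product malonyl-CoA inhibits CPT1, differed by -0.67 ± 0.29 (SE), with casein 18 at 11.93 and soy 147 at 9.56 at the ends of its range, and by -0.40 without casein 18. Pparg, the regulator of fat cell formation, differed by 0.22 ± 0.19 (SE) and Ucp2, an uncoupling protein of many tissues, by 0.20 ± 0.16 (SE). Leaving out 1 array took Pparg to 0.13 (casein 6 or soy 159) or 0.35 (soy 147), and Ucp2 to 0.11 (casein 6 or soy 147), 0.13 (soy 155) or 0.31 (soy 149). Ppara itself lay between 2.96 and 3.92, far under the filter, and was not tested.

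Genes of the pyruvate dehydrogenase complex, its other kinases, its phosphatases and the pyruvate carriers were lower in 6 and higher in 5 of 11 tested, with a median of -0.01. Pdha1, the catalytic subunit that the kinases phosphorylate, differed by -0.01 ± 0.13 (SE) at its brightest probe set. At its dimmer probe set soy 155 and soy 159 were lowest, at 8.51 and 9.14, against 9.40 to 9.94 in the other arrays. Pdhb differed by -0.22 ± 0.14 (SE) and Pdhx by -0.24 ± 0.19 (SE). Both were -0.13 without casein 18. Pdhb was -0.14 without soy 147, and Pdhx was -0.37 without casein 7 and -0.36 without soy 149. Genes of the citrate cycle and mitochondrial content were lower in 8 and higher in 6 of 14, with a median of -0.03. Citrate synthase (Cs) differed by -0.03 ± 0.10 (SE) at its brightest probe set. At its dimmest, soy 147, 155 and 157 read 10.13, 9.95 and 10.35, below the casein range of 10.43 to 10.62. Soy 149 and soy 159 lay within that range. At the remaining Cs probe set the diets overlapped, with soy 147 lowest at 10.13. The chaperonin Hspd1 differed by 0.07 ± 0.13 (SE), Idh3b by -0.22 ± 0.16 (SE) and Suclg1 by -0.23 ± 0.12 (SE). The Idh3b difference was -0.09 without casein 6 and -0.15 without soy 147.

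**Figure D5:**
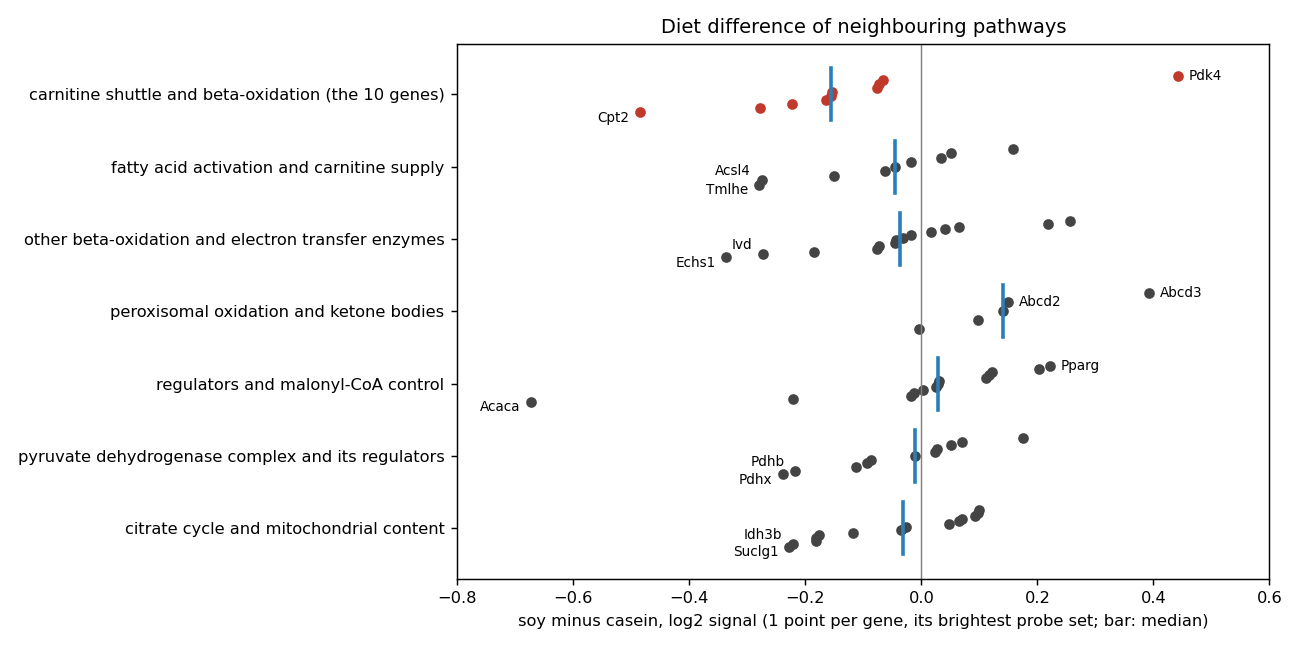
Soy minus casein difference in log2 signal (horizontal axis) of the 10 genes and of 6 neighbouring gene lists, 1 point per tested gene at its brightest probe set, with the median of each list as a bar. The 10 genes have a median of -0.155 at these probe sets with Cpt2 and Pdk4 at the ends, and the other medians lie between -0.05 and 0.14.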

How the data were processed

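Total RNA of whole mammary glands was measured on 1-colour arrays, 1 per sample, in 10 samples. The deposited table holds linear intensity values, 1 per probe set and array. The submitters' processing notes name MAS5 as the authors' tool, and its version is not given in the sources used here. The 2% trimmed mean was 500.1 on every array in the deposited table, so this scaling was kept. Detection calls were not used here. Of 15923 probe sets, 57 controls were left out. Signals below 1 were set to 1, log2 was taken, and probe sets with a mean at or above the 40th percentile (7.47) were tested.

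The diets were compared by limma (version 3.58.1, R 4.3.3) with a variance trend on mean signal and two-sided p-values, and Benjamini-Hochberg adjustment ran over the 9520 probe sets tested. The same steps were tested on simulated data. The number of arrays limits the precision: the median SE of a difference was 0.144. Gene lists used each gene's brightest probe set and are described by counts and medians. The members and lists were chosen with earlier results of these data known. Named genes are all members, Myl11, the 2 brightest and the 2 with the largest difference of each pathway list, and the 3 most like Cpt2 and Pdk4. Other genes were named after their values were seen. Symbols come from the platform annotation; the identifiers of all 11 member probe sets were in the RefSeq gene table, which changed 0 symbols. Alternatives were quantile normalization, median centring, other filters, a pseudocount of 16 before log2, array weights, no variance trend, muscle and lymph node signals as covariates, leaving out arrays, and averaging the probe sets of a gene. Leaving out each array for the named list genes was added after seeing the data.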

Additional observations from a re-analysis of the deposited data

Results flagged for a closer look

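In 3 of the 22 sets of 5 arrays (11 probe sets, 2 diets), 1 array lay far from the others by Dixon's criterion, which flags about 1 in 20 such sets by chance. Cpt1b was 10.21 in casein 6, where the next casein array was at 8.47. Acadl was 11.23 in casein 6, with the next at 10.57. Slc25a20 was 8.78 in soy 149, with the next soy array at 8.43. Casein 6 and soy 149 are both high in muscle and low in lymph node signal, and the part of these in the 3 values was not tested.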

How the results depend on the processing

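No setting gave a probe set with an adjusted p under 0.05 in limma: the count was 0 in all 22 alternatives, and also 0 without any 1 array. The smallest adjusted p was 0.0855, without the 4 arrays of highest Myl11. The median difference of the members ran from -0.22, without soy 149, to -0.08, with the filter at the 60th percentile, and from -0.22 to -0.09 without 1 array. Cpt2 ran from -0.55 to -0.39 over 21 alternatives and from -0.53 to -0.41 without 1 array. Pdk4 ran from 0.27 to 0.53 over 21, and from 0.29 to 0.53 without 1 array. At the 60th percentile Cpt1b, Cpt2, Slc25a20 and Pdk4 fell under the filter and have no value. The sign was the same in all alternatives for Cpt2, Pdk4, Slc25a20, Acadm, Acadl and Hadha. It turned in at least 1 for the others: in 8 of 21 and 3 of 21 for the Cpt1a probe sets, 2 of 21 for Cpt1b, 1 of 22 for Acadvl and 2 of 22 for Hadhb. No paired analysis was possible because the diets share no replicate number.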
